A study of Mus musculus with 6 samples.

Results

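Genes of cholesterol and lipid synthesis were followed through whole testes of newborn mice that differed in the gene for the corepressor scaffold Sin3a. The set holds 32 genes, taken by name from the array's annotation, out of 24573 genes tested, and 49 of 55681 probes carry their names. The list was chosen with earlier results of these data known. Its counts beside those of all genes are thus a description and no independent support. By role, 7 genes belong to the mevalonate arm, 11 lead from farnesyl units through squalene to cholesterol, 6 sense or carry sterols and 8 make or reshape fatty acids. VSKO mice had the genotype Vasa-cre with 1 deleted and 1 floxed Sin3a allele, HEMI mice had Vasa-cre with 1 deleted allele beside an intact one, and in WT mice, which had Vasa-cre as well, both alleles were intact. Each group had 2 biological replicates, whole testes of male mice of postnatal day 0 on a mixed FVB.129/Sv background, with 1 array each. How many animals went into each array is not stated here. Every group carried the Cre transgene. The Cre is driven by Ddx4, also called Vasa, a gene of germ cells, while the RNA came from the whole organ, in which germ cells are a minority. The labels place the losses in germ cells and do not say whether other cells of the testis also carried the deleted allele.

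Cells build cholesterol from acetyl-CoA, first through mevalonate to farnesyl diphosphate and then through squalene and lanosterol. When sterols run low, SCAP escorts the SREBP transcription factors (genes Srebf1 and Srebf2) out of the endoplasmic reticulum, and the cleaved factors switch on most enzymes of this route together with genes of fatty acid synthesis, while INSIG proteins hold SCAP back when sterols are plentiful. In the fetal and newborn testis, Leydig cells use cholesterol as the substrate of androgens, and other cells need it for their membranes.

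The level of a gene is given as the log2 signal of its probe relative to the 75th percentile of its array, so 0 is the signal at that percentile, and levels are compared between groups and never between probes. Between 59.2% and 64.53% of spots were well above background on the 6 arrays, and 0 were saturated. The correlation of the 2 replicates of 1 genotype over all genes (Pearson's r) was 0.987 to 0.992. All 32 genes were well above background on all 6 arrays, while a gene was tested if both arrays of any group had a probe of it above background. Of the 24573 genes tested, 17105 had a known gene symbol. Shares of all genes thus include dimmer and unnamed ones. Sin3a itself, the targeted gene, measured 0.61 and 0.38 in VSKO testes, 0.89 and 0.89 in HEMI testes and 1.09 and 1.11 in WT testes, with no difference past the threshold, and which exons were deleted is not given in the sources used here, so its probe may lie outside them. Slide and position were read from the names under which the arrays were deposited, and the sample labels do not give them. By these names the arrays shared 1 slide, with VSKO and HEMI in row 1 and WT in row 2. Read so, slide row and genotype cannot be told apart in any comparison with WT.

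Most cholesterol and lipid genes had lower signal in VSKO and in HEMI testes than in WT testes. The difference was negative for 29 of 32 genes in VSKO against WT, where 51.3% of all genes were negative, with a median of -0.48, a fold of 0.719, beside a median of -0.0088 over all 24573 genes. In HEMI against WT it was negative for 28 of 32, against 53.5% of all genes, with a median of -0.39 beside -0.024 over all genes, and without HEMI replicate 1 the members' median was -0.23. Between VSKO and HEMI it was negative for 17 and positive for 15, where 44.6% of all genes were negative, with a median of -0.047 beside 0.024 over all genes. That median was -0.20 without HEMI replicate 1 and 0.12 without HEMI replicate 2. The comparisons with WT share the same WT arrays, so their values are given side by side and are no check of each other. Since the organ was measured whole, fewer cells of a type and less RNA per cell cannot be told apart.

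None of the 32 genes passed an adjusted p of 0.05 (limma over all genes, Benjamini-Hochberg) in any of the 3 comparisons. Of all genes, 240 passed in VSKO against WT (0.977%), 29 in HEMI against WT (0.118%) and 35 in VSKO against HEMI (0.142%). With an intensity trend in the prior, 3 members passed in VSKO against WT (Fdps, Dhcr7 and Fads2) and 1 in HEMI against WT (Fdps), and with normexp background correction 2 passed in VSKO against WT (Fdps and Dhcr7). A difference from WT beyond 1 on the log2 scale was measured for Scd1 in VSKO and HEMI and for Dhcr7 in VSKO. At an unadjusted p under 0.05, 16 of 32 members were lower in VSKO than in WT, against 7.52% of all genes, and 1 was higher, against 7.22%. That count ran between 8 and 17 when an array was left out, and was 8 without WT replicate 2. In HEMI against WT, 11 members were lower, against 7.69% of all genes, and 0 higher, against 4.76%. This second count was 3 without HEMI replicate 1, 4 without WT replicate 2 and 7 without WT replicate 1. VSKO against HEMI gave 2 lower, against 3.26% of all genes, and 0 higher, against 4.43%.

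Counted by arrays, both VSKO arrays lay below both WT arrays for 25 members and above them for 2, with overlap for 5, where 23.4% of all genes lay below and 22.3% above. Both HEMI arrays lay below both WT arrays for 22 members and above for 1, where 28.4% of all genes lay below and 20.9% above. VSKO lay below HEMI for 7 members and above for 5, against 14.1% and 18.8% of all genes. In 20 members all 4 VSKO and HEMI arrays lay below both WT arrays, as they did in 15.1% of all genes. The group means stood in the order VSKO, HEMI, WT from low to high for 15 members and in the order HEMI, VSKO, WT for 13, so which of the mutant groups was lower differed from gene to gene.

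**Figure D1:**
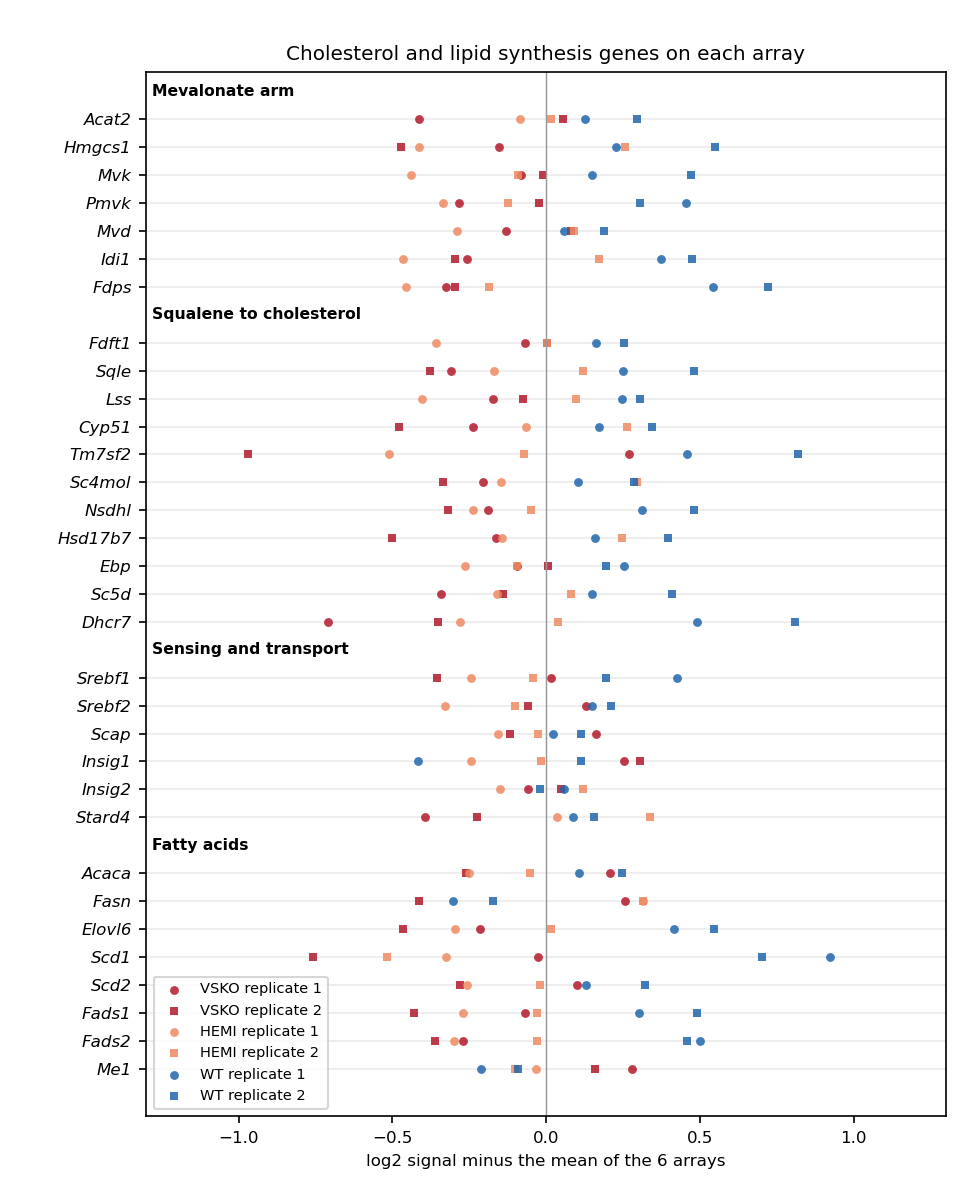
Level of each of the 32 genes on each array, as the log2 signal minus the mean of that gene over the 6 arrays (horizontal axis, log2 units), with genes down the page in their roles and points coloured by group (VSKO, HEMI and WT). WT points lie to the right for most genes, and in 20 genes both WT points lie right of all 4 others, against 15.1% of all genes tested.

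The median gene of the set, centred on its own mean over the 6 arrays, stood at -0.14 and -0.29 on the VSKO arrays, at -0.26 and -0.01 on the HEMI arrays and at 0.17 and 0.32 on the WT arrays. The 2 HEMI replicates were further apart than the 2 replicates of either other group. HEMI replicate 2 was above HEMI replicate 1 in 29 of 32 members, by a median of 0.27, while 51.3% of all genes were higher in that replicate. WT replicate 2 was above WT replicate 1 in 26 of 32, by a median of 0.14, against 48.7% of all genes, and VSKO replicate 2 was above VSKO replicate 1 in 13 of 32, by a median of -0.10, against 51.9%. Most members thus differed in the same direction between the 2 HEMI replicates and between the 2 WT replicates.

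**Figure D2:**
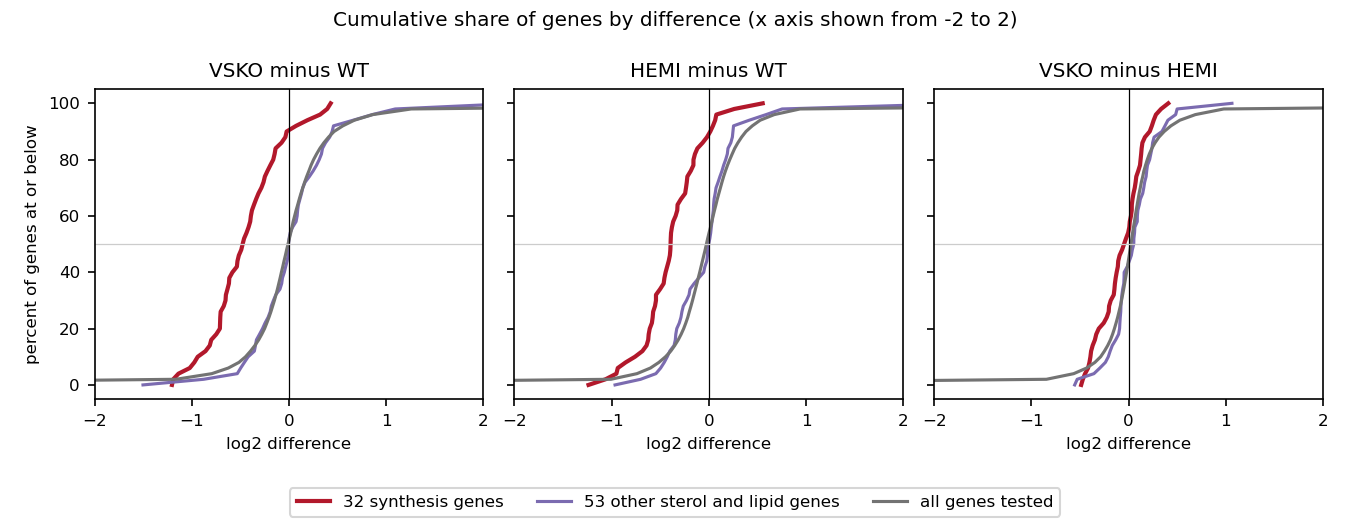
Cumulative share of genes (vertical axis, percent) at or below each log2 difference (horizontal axis) in VSKO against WT, HEMI against WT and VSKO against HEMI, for the 32 members, the 53 other sterol and lipid genes measured and all 24573 genes. Against WT the members' curve lies left of the other curves over most of its length, with medians of -0.48 and -0.39, and between VSKO and HEMI its median is -0.047.

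In the mevalonate arm, 7 of 7 genes had a negative difference in both comparisons with WT, with medians of -0.53 in VSKO and -0.57 in HEMI, and the median between VSKO and HEMI was 0.0038. Fdps makes farnesyl diphosphate, the branch point for sterols and protein prenylation, and its probe lies on chromosome 3 from 88897549 to 88897608 (mm9). It measured 4.61 and 4.64 in VSKO testes, 4.48 and 4.75 in HEMI testes and 5.48 and 5.66 in WT testes. All 4 VSKO and HEMI arrays lay well below the WT arrays, and VSKO and HEMI overlapped. The difference was -0.95 ± 0.15 (SE) in VSKO against WT, a fold of 0.517 (adjusted p = 0.0705), and -0.96 ± 0.15 in HEMI against WT, a fold of 0.516 (adjusted p = 0.117). Between VSKO and HEMI it was 0.0038, with a 95% interval of -0.37 to 0.38.

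Pmvk, phosphomevalonate kinase, measured 2.81 and 3.07 in VSKO testes, 2.76 and 2.97 in HEMI testes and 3.55 and 3.40 in WT testes. Here too the VSKO and HEMI arrays overlapped and all lay below WT, by -0.53 ± 0.16 (adjusted p = 0.226) and -0.61 ± 0.16 (adjusted p = 0.238). A second probe of Pmvk gave -0.48 and -0.53. Idi1, which isomerises isopentenyl diphosphate, differed by -0.70 in VSKO and -0.57 in HEMI, and Hmgcs1, the synthase that commits acetyl units to the route, by -0.71 and -0.47 (adjusted p = 0.258 to 0.554 for these 4 values). The array places the Hmgcs1 probes on an unplaced stretch assigned to chromosome 13 in mm9. Mvk, mevalonate kinase, differed by -0.35 and -0.58, and its second probe by -0.47 and -0.56. Acat2, the cytosolic acetoacetyl-CoA thiolase, differed by -0.39 and -0.24. Mvd, the decarboxylase after Pmvk, had the smallest differences of the arm, -0.15 and -0.22, and its arrays overlapped with WT in both.

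From squalene to cholesterol, 11 of 11 genes had a negative difference in both comparisons with WT, with medians of -0.61 in VSKO and -0.39 in HEMI. Both VSKO arrays lay below both WT arrays in 11 of 11 and both HEMI arrays in 8 of 11. The overlapping 3 in HEMI were Cyp51, Sc4mol and Hsd17b7, named here after their values were seen, all of them enzymes of the removal of methyl groups from lanosterol. That step does not set them apart, since Nsdhl, which works with Sc4mol, lay below WT on both HEMI arrays (-0.54).

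Dhcr7 encodes the reductase of the last step to cholesterol, and its probe lies on chromosome 7 from 151033874 to 151033933 (mm9). It measured 0.72 and 1.08 in VSKO testes, 1.15 and 1.47 in HEMI testes and 1.92 and 2.24 in WT testes. The 3 groups did not overlap, with VSKO lowest and WT highest. Its difference was -1.18 ± 0.21 in VSKO against WT, a fold of 0.441 (adjusted p = 0.0918), and -0.77 ± 0.21 in HEMI against WT, a fold of 0.586 (adjusted p = 0.264). VSKO minus HEMI was -0.41 ± 0.21, with a 95% interval of -0.94 to 0.12 (adjusted p = 0.837), so an order between the mutant groups was not shown.

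Nsdhl, an X-linked sterol dehydrogenase that works with Sc4mol, measured 0.30 and 0.17 in VSKO testes, 0.25 and 0.44 in HEMI testes and 0.80 and 0.97 in WT testes. Its VSKO and HEMI arrays overlapped below WT, at -0.65 ± 0.14 (adjusted p = 0.133) and -0.54 ± 0.14 (adjusted p = 0.241), and a second, dimmer probe gave -0.50 and -0.36. Sqle, squalene epoxidase, an oxygen-dependent and rate-controlling enzyme of the route, measured 3.30 and 3.23 in VSKO testes, 3.44 and 3.73 in HEMI testes and 3.86 and 4.09 in WT testes. These groups stood in steps without overlap, at -0.71 ± 0.16 in VSKO against WT (adjusted p = 0.146), -0.39 ± 0.16 in HEMI against WT (adjusted p = 0.420) and -0.32 ± 0.16 in VSKO against HEMI (adjusted p = 0.811). Cyp51, the lanosterol demethylase, measured -0.49 and -0.73 in VSKO testes, -0.32 and 0.01 in HEMI testes and -0.08 and 0.09 in WT testes. Both VSKO arrays lay below the HEMI arrays, which overlapped with WT, and the differences were -0.62 ± 0.18 in VSKO against WT (adjusted p = 0.213), -0.16 ± 0.18 in HEMI against WT (adjusted p = 0.742) and -0.46 ± 0.18 in VSKO against HEMI (adjusted p = 0.616).

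Among the remaining genes of this stretch, Hsd17b7, a keto-reductase of sterols and of estrone, differed by -0.61 in VSKO and -0.23 in HEMI, and Sc4mol, the methyl sterol oxidase also called Msmo1, by -0.47 and -0.12. Sc5d, a desaturase, differed by -0.53 and -0.32, Lss, which closes the lanosterol rings, by -0.40 and -0.43, Ebp, an isomerase, by -0.27 and -0.40, and Fdft1, squalene synthase, by -0.25 and -0.39. Their adjusted p ran from 0.251 to 0.818. Tm7sf2, a sterol reductase, had the widest spread, with 1.78 and 0.54 in VSKO testes, 1.00 and 1.44 in HEMI testes and 1.97 and 2.33 in WT testes. Its differences of -0.99 ± 0.43 and -0.93 ± 0.43 had wide errors (adjusted p = 0.379 and 0.469), although its second probe gave -0.95 and -0.98.

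**Figure D3:**
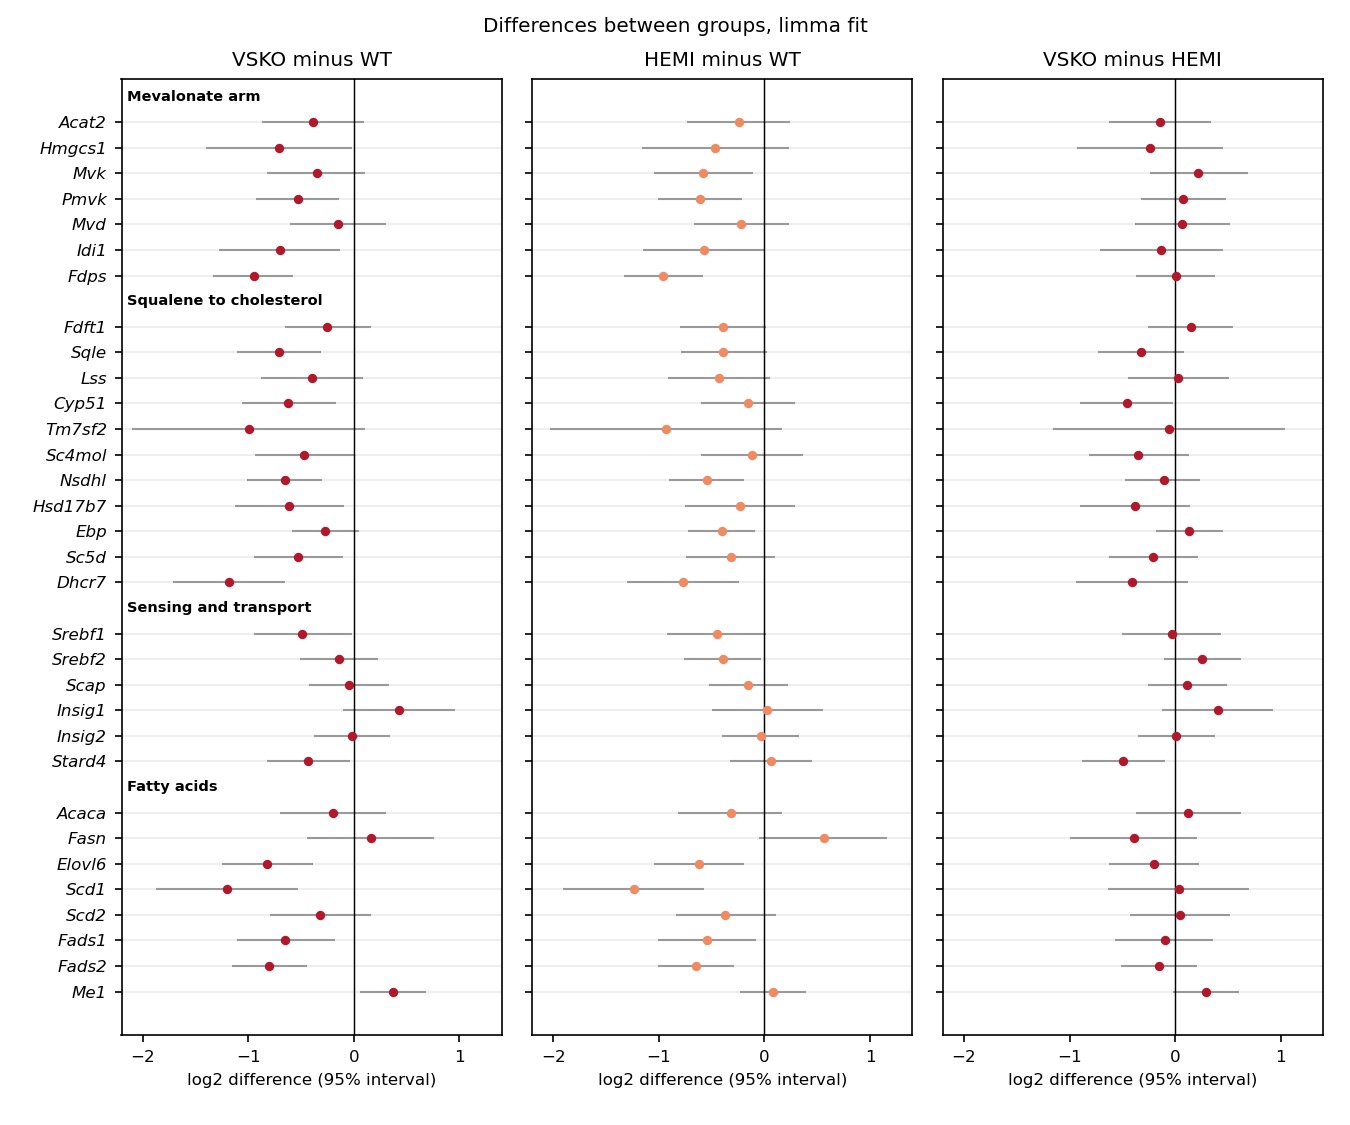
Log2 difference of each member (horizontal axis) with its 95% interval from the fit, in VSKO against WT, HEMI against WT and VSKO against HEMI, genes down the page by role. Against WT nearly all points lie below 0, from -1.20 to 0.43 in VSKO and from -1.24 to 0.56 in HEMI, and between VSKO and HEMI they lie between -0.49 and 0.41.

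The genes that sense or carry sterols lay on both sides of WT. Of 6, 5 had a negative difference in VSKO against WT and 4 in HEMI, with medians of -0.092 and -0.10, and in VSKO they ran from -0.49 (Srebf1) to 0.43 (Insig1). Srebf1, the SREBP gene tied most to fatty acids, differed by -0.49 in VSKO and -0.45 in HEMI (adjusted p = 0.322 and 0.410). Srebf2, the one tied most to cholesterol, differed by -0.14 and -0.39 (adjusted p = 0.702 and 0.372), and its second probe by 0.086 and -0.15. Scap, their escort, stood at -0.042 and -0.16, and Insig2 at -0.021 and -0.033, with arrays of VSKO and WT overlapping in both.

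Insig1, the feedback protein that SREBP itself induces in most cells, stood on the other side of WT from most enzymes. It measured -0.31 and -0.26 in VSKO testes, -0.81 and -0.58 in HEMI testes and -0.98 and -0.45 in WT testes. Both VSKO arrays lay above all 4 others, with a difference of 0.43 ± 0.21 against WT (adjusted p = 0.422) and 0.41 ± 0.21 against HEMI (adjusted p = 0.833), while HEMI minus WT was 0.022 ± 0.21. The 2 WT replicates differed by more than this, so the value is imprecise. Stard4, a soluble carrier of sterols, measured 0.61 and 0.78 in VSKO testes, 1.04 and 1.34 in HEMI testes and 1.09 and 1.16 in WT testes. Only the VSKO arrays of Stard4 lay apart, below the others, at -0.43 ± 0.15 against WT (adjusted p = 0.305) and -0.49 ± 0.15 against HEMI (adjusted p = 0.481). A dimmer probe near the start of the Stard4 transcript gave 0.28 against WT and -0.072 against HEMI, so its direction against WT depends on the probe.

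Among the fatty acid genes, 6 of 8 had a negative difference in each comparison with WT, with medians of -0.48 in VSKO and -0.45 in HEMI, and the negative ones were those that lengthen or desaturate chains, besides Acaca. Scd1, stearoyl-CoA desaturase, measured -1.91 and -2.64 in VSKO testes, -2.21 and -2.40 in HEMI testes and -0.96 and -1.18 in WT testes. All 4 mutant arrays lay below WT, and the VSKO replicates spanned the HEMI values. The probe lies on chromosome 19 from 44469387 to 44469446 (mm9), near the end of the transcript. The differences of -1.20 ± 0.26 in VSKO, a fold of 0.434, and -1.24 ± 0.26 in HEMI, a fold of 0.424, were the most negative of the 32 genes in each comparison (adjusted p = 0.137 and 0.178). Its paralogue Scd2, an isoform needed for lipid synthesis in early life of the mouse, differed by -0.32 and -0.37 (adjusted p = 0.505 and 0.503).

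Fads2, the delta-6 desaturase of polyunsaturated fatty acids, measured 0.39 and 0.30 in VSKO testes, 0.36 and 0.63 in HEMI testes and 1.16 and 1.12 in WT testes. Its VSKO and HEMI arrays overlapped and lay below WT, at -0.80 ± 0.14 (fold 0.575, adjusted p = 0.0895) and -0.65 ± 0.14 (fold 0.638, adjusted p = 0.182), and a second probe gave -0.70 and -0.39. Fads1, its neighbour on chromosome 19 and the delta-5 desaturase, differed by -0.65 and -0.54 (adjusted p = 0.214 and 0.341). Elovl6, which elongates palmitate, measured 1.76 and 1.51 in VSKO testes, 1.68 and 1.99 in HEMI testes and 2.39 and 2.52 in WT testes. Again only WT stood apart, by -0.82 ± 0.17 in VSKO (fold 0.566, adjusted p = 0.124) and -0.62 ± 0.17 in HEMI (fold 0.650, adjusted p = 0.266).

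The enzymes at the head of fatty acid synthesis and the supplier of NADPH did not share a direction. Acaca, acetyl-CoA carboxylase, differed by -0.20 in VSKO and -0.32 in HEMI, where both arrays lay below both WT arrays, and Fasn, fatty acid synthase, by 0.16 and 0.56, with adjusted p of 0.432 to 0.797 for these 4 values. Without VSKO replicate 1 the Fasn difference against WT was -0.18. Me1, the cytosolic malic enzyme that supplies NADPH, measured 6.28 and 6.16 in VSKO testes, 5.97 and 5.90 in HEMI testes and 5.79 and 5.91 in WT testes. The VSKO arrays lay above all others, at 0.37 ± 0.12 against WT (adjusted p = 0.268) and 0.29 ± 0.12 against HEMI (adjusted p = 0.712). Of its other probes, the one at base 3030 of the transcript gave 0.35 against WT and the one at base 1729 gave -0.20, while the probe used starts at base 3168, so the direction differs along the transcript.

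**Figure D4:**
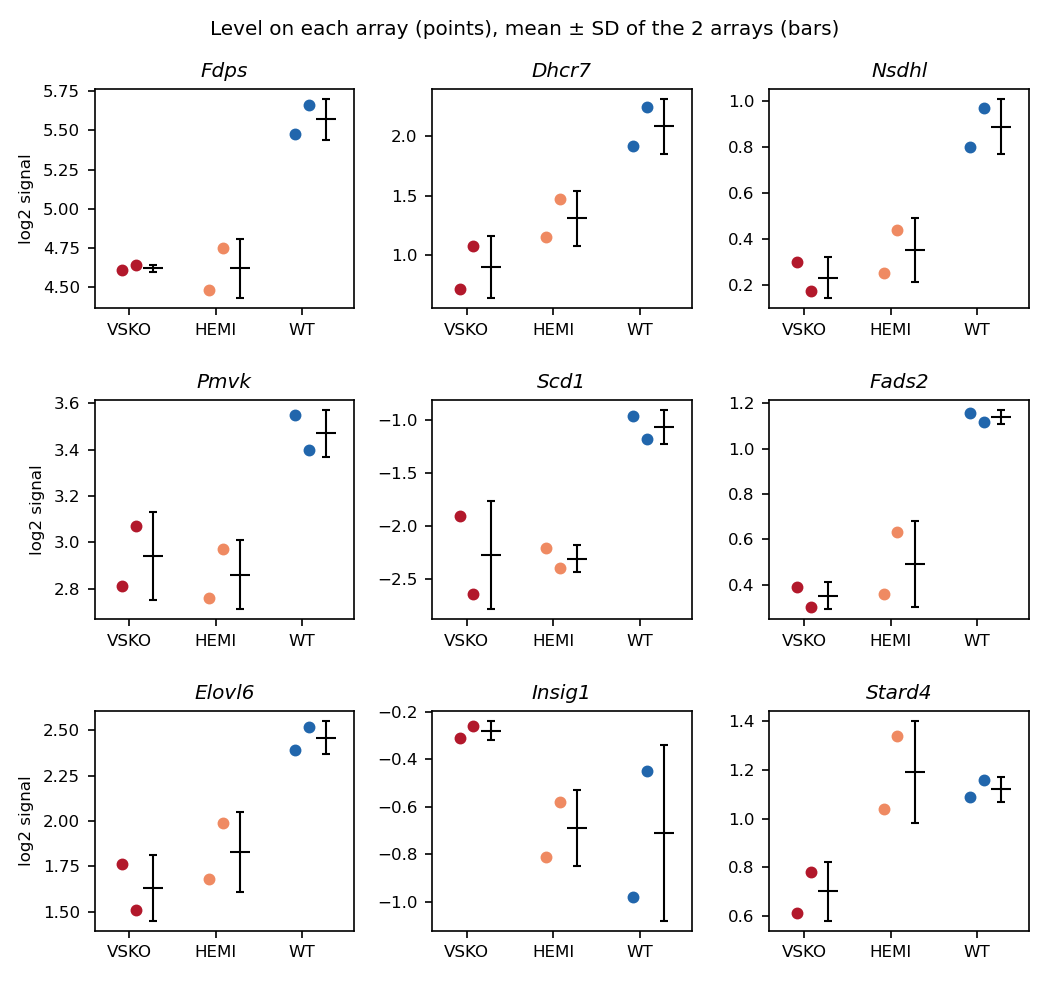
Log2 signal (vertical axis) on each array for 9 members, 2 points per group with a line for the mean and a bar for the SD (n = 2), in the order VSKO, HEMI and WT. Fdps, Nsdhl, Pmvk, Scd1, Fads2 and Elovl6 show WT apart from both mutant groups, Dhcr7 shows 3 separate levels, and Insig1 and Stard4 show VSKO apart in opposite directions.

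Other kept probes of the same genes gave the same direction as the probe used in 11 of 15 cases for VSKO against WT and in 13 of 15 for HEMI against WT. The opposite ones belong to Hsd17b7, Me1, Srebf2 and Stard4 in the first comparison and to Insig2 and Me1 in the second.

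The sequence before the start sites is shown because the route is a textbook case of genes switched together through SREBP, whose sites lie beside NF-Y and Sp1 boxes. RefSeq windows of GRCm38.p6, 250 bases before to 50 after each start, were at hand for 25 of the 32 members, in 34 windows. The other 7 are Fads1, Fdft1, Fdps, Scd1, Scd2, Sqle and Stard4. Each line below gives the 250 bases before 1 start, 5′ to 3′ on the gene's strand. Capitals mark a match, on either strand, to the sterol element pattern CACNCCAC, the NF-Y box CCAAT, the GC box GGGCGG bound by Sp1, or the E-box CACGTG. Dhcr7 has several annotated starts, and the one with most matches is given.
Dhcr7, chr7:143829964-143830213, plus strand: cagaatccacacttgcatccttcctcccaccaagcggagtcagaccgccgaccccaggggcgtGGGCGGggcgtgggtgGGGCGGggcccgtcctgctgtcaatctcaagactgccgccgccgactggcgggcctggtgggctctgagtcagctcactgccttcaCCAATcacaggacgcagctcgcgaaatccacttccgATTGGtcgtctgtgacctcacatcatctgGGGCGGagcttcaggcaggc
Nsdhl, chrX:72918271-72918520, plus strand: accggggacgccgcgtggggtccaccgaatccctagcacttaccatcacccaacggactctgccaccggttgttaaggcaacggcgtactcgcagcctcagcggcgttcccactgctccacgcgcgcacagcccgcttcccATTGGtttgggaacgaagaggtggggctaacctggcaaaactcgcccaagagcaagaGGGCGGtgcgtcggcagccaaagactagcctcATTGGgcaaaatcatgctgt
Cyp51, chr5:4104698-4104947, minus strand: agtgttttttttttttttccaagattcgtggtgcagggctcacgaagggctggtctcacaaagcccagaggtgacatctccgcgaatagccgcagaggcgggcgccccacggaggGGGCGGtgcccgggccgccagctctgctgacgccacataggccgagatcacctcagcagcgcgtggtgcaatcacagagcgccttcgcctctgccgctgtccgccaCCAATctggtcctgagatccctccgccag
Hmgcs1, chr13:119690101-119690350, plus strand: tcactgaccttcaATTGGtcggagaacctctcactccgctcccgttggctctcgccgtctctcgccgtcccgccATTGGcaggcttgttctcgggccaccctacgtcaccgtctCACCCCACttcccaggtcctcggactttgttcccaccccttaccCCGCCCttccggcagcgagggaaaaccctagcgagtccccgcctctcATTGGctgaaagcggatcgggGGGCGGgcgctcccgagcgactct
Insig1, chr5:28071162-28071411, plus strand: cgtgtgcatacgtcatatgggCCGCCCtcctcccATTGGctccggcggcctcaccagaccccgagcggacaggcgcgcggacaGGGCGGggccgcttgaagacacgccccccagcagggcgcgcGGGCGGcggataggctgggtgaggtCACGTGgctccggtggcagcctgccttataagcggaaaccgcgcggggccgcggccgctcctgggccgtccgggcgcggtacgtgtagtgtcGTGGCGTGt
Fads2, chr19:10101504-10101753, minus strand: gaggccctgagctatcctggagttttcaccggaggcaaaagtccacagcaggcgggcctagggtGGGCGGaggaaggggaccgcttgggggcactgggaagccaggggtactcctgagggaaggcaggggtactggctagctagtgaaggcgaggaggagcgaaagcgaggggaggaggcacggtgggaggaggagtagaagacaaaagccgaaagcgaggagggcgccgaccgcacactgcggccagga

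In these windows Dhcr7 held NF-Y boxes whose first base lay 85 and 49 bases before the start and GC boxes at 187, 171 and 20 bases. Hmgcs1 held the sterol element pattern at 136 bases before the start, between NF-Y boxes at 237, 176 and 45 bases, and Insig1 held it at 9 bases. Nsdhl and Cyp51 held NF-Y and GC boxes and no match to the sterol pattern, and Fads2 held a GC box at 186 bases. Over the windows of 300 bases, the NF-Y box was in 21 of 34 member windows (61.8%), against 37.4% of 32851 windows in the table. The GC box was in 25 of 34 (73.5%), against 35.7%. For the E-box the count was 6 of 34 (17.6%), against 7.15%, and for the sterol element pattern 3 of 34 (8.82%), against 6.24%, in Acat2, Hmgcs1 and Insig1. Windows of 1 gene overlap in part, and a match to such short patterns is a description of the letters and no evidence of binding. Members with and without a match differed in either direction, by motif and comparison, and these small groups were not tested. The 20 members with an NF-Y box had median differences of -0.48 in VSKO and -0.40 in HEMI against WT, and the 5 without had -0.39 and -0.32. With a GC box the medians were -0.47 and -0.39 for 21 members, against -0.37 and -0.47 for 4 without. With an E-box they were -0.53 and -0.23 for 5 members, against -0.43 and -0.42 for 20 without. With the sterol element pattern they were -0.39 and -0.24 for 3 members, against -0.48 and -0.40 for 22 without. These 3 did not share a direction. Acat2, Hmgcs1 and Insig1 stood at -0.39, -0.71 and 0.43 in VSKO and at -0.24, -0.47 and 0.022 in HEMI.

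The wider sterol and lipid genes did not share the low signal as a group. Of 54 listed genes outside the set, 53 were measured. None passed in any comparison. At an unadjusted p under 0.05, 4 were lower and 6 higher in VSKO against WT, beside 7.52% and 7.22% of all genes. In HEMI against WT 6 were lower and 3 higher, beside 7.69% and 4.76%. In VSKO against HEMI 0 were lower and 3 higher, beside 3.26% and 4.43%. By sign alone, 27 were lower and 26 higher in VSKO against WT, with a median of -0.0035, where 51.3% of all genes were lower. In HEMI against WT 27 were lower and 26 higher, with a median of -0.0012, where 53.5% of all genes were lower.

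Several of these genes with small p-values act elsewhere in lipid metabolism. Elovl3, an elongase of very long chains, was not well above background on either WT array and was kept only through its VSKO and HEMI signal. Set against the background limit, it was at least 1.42-fold higher in VSKO and at least 1.83-fold higher in HEMI. These bounds were not tested. The fit's adjusted p of 0.0776 and 0.101 belong to the measured differences of 2.36 and 2.72, which rest on the dim WT values. Lpin1, a phosphatidate phosphatase, measured -0.86 and -1.06 in VSKO testes, -1.31 and -1.61 in HEMI testes and -2.28 and -1.85 in WT testes. It stood in steps opposite to Dhcr7 and Sqle, at 1.1 ± 0.20 in VSKO against WT (adjusted p = 0.101), 0.60 ± 0.20 in HEMI against WT (adjusted p = 0.341) and 0.50 ± 0.20 in VSKO against HEMI (adjusted p = 0.683). Fabp5, a fatty acid binding protein, differed by -0.53 ± 0.12 in VSKO (adjusted p = 0.150) and -0.71 ± 0.12 in HEMI (adjusted p = 0.135). Lipa, the lysosomal lipase that frees cholesterol from its esters, differed by -1.50 ± 0.35 in VSKO (adjusted p = 0.160) and by -0.96 ± 0.35 in HEMI (adjusted p = 0.371), where the replicates were far apart at 1.07 and -0.01. Cyb5r3, a reductase that feeds electrons to desaturases, differed by 0.43 ± 0.11 in VSKO (adjusted p = 0.188) and 0.44 ± 0.11 in HEMI (adjusted p = 0.242). In VSKO against HEMI, Npc1l1, a sterol transporter, differed by 0.49 ± 0.17 (adjusted p = 0.546) and Dgat2, an enzyme of triglyceride synthesis, by 0.41 ± 0.15 (adjusted p = 0.590).

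**Figure D5:**
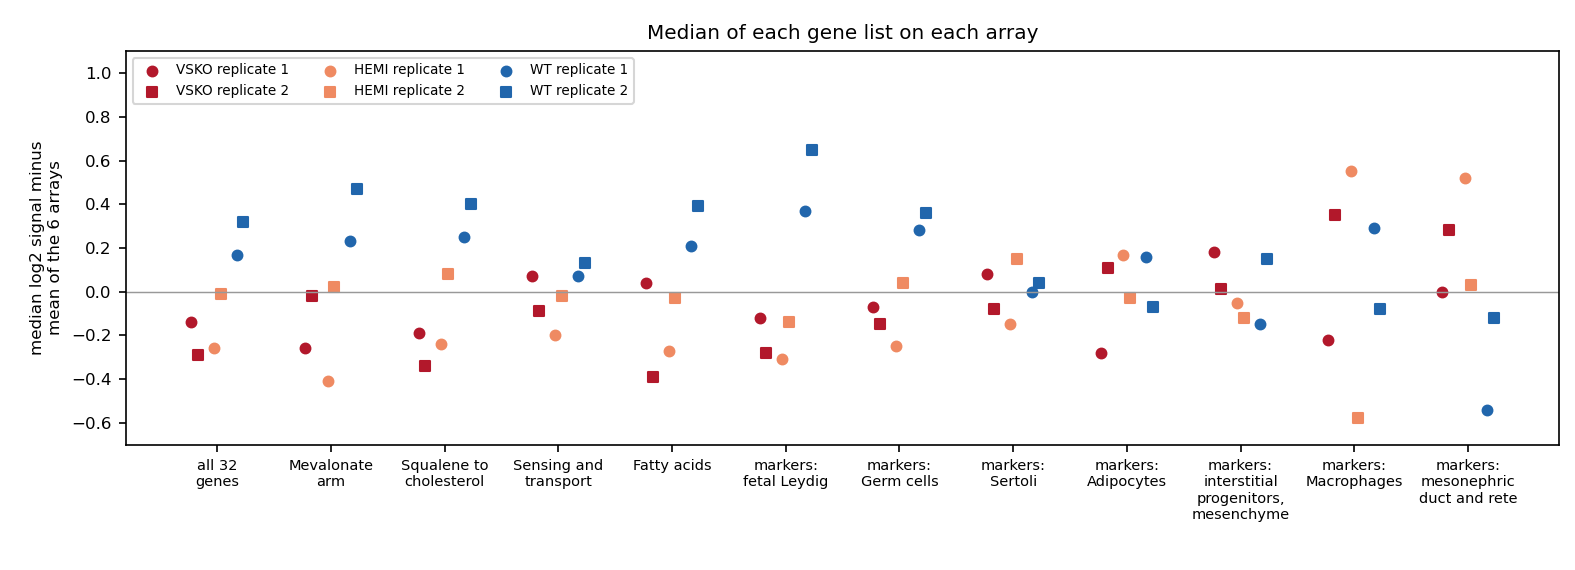
Median of each gene list on each array, every gene centred on its own mean over the 6 arrays (vertical axis, log2 units), with lists along the horizontal axis and 1 point per array, coloured by group in the order VSKO, HEMI and WT. The members run from -0.29 to 0.32 and the fetal Leydig markers from -0.31 to 0.65, with WT highest in both, while the Sertoli markers run from -0.15 to 0.15 and the mesonephric duct and rete markers from -0.54 to 0.52 with WT lowest.

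By their medians, markers of some cell types were lower than in WT beside these genes, and those of another were higher. Fetal Leydig cell markers, 11 of 12 of them measured and all above background on 6 arrays, had array medians of -0.12 and -0.28 in VSKO, -0.31 and -0.14 in HEMI and 0.37 and 0.65 in WT. Their summed scaled signal was 201 and 190.0 in VSKO, 169 and 204 in HEMI and 251 and 290.0 in WT, the median difference was -0.82 in VSKO against WT and -0.72 in HEMI against WT, and Cyp17a1, an androgen-making enzyme, passed in VSKO against WT (-1.40 ± 0.16, adjusted p = 0.0423). Star, which carries cholesterol into mitochondria, stood at -1.83 and -1.94, and Cyp11a1, which cuts its side chain, at -0.89 and -1.0. Hsd3b1, Nr5a1 and Fdxr, also Leydig markers, stood between -0.13 and 0.048 in both. Germ cell markers, 13 of 13 measured, had array medians of -0.07 and -0.15 in VSKO, -0.25 and 0.04 in HEMI and 0.28 and 0.36 in WT, with median differences of -0.37 and -0.29. Their summed scaled signal was 35.3 and 33.7 in VSKO, 32.8 and 36.8 in HEMI and 36.3 and 41.2 in WT. Sertoli cell markers, 11 of 11 measured, had median differences of 0.013 and 0.014. Their array medians were 0.08 and -0.08 in VSKO, -0.15 and 0.15 in HEMI and 0.0 and 0.04 in WT. Within each genotype, the Leydig, germ cell and Sertoli lists all had the same replicate higher as the cholesterol and lipid genes. The macrophage and adipocyte lists had the other replicate higher within each genotype. Array medians of the macrophage list were -0.22 and 0.35 in VSKO, 0.55 and -0.58 in HEMI and 0.29 and -0.08 in WT. Those of the adipocyte list were -0.28 and 0.11, 0.17 and -0.03, and 0.16 and -0.07. The mesonephric and interstitial lists were mixed. What set the order of the replicates was not tested. The adipocyte markers, 8 of 9 measured, had summed scaled signals of 2.52 and 2.97 in VSKO, 3.71 and 2.76 in HEMI and 3.31 and 2.83 in WT, overlapping between the groups. Mesonephric duct and rete markers, 6 of 6 measured and 5 of them above background on all arrays, stood on the other side of WT. Their array medians were 0.00 and 0.28 in VSKO, 0.52 and 0.03 in HEMI and -0.54 and -0.12 in WT, their summed scaled signals 8.95 and 13.9 in VSKO, 14.0 and 10.9 in HEMI and 7.99 and 9.04 in WT, and their median differences 0.30 and 0.52. Of these, Lhx1, a transcription factor of the duct, passed in VSKO against WT (1.25 ± 0.15, adjusted p = 0.0431) and stood at 1.52 ± 0.15 in HEMI against WT (adjusted p = 0.0527). Cdh1 went the other way in VSKO, at -0.37 against WT, and stood at 0.52 in HEMI. Pax8, Krt8, Epcam and Pax2 stood at 0.86, 0.39, 0.21 and 0.2 in VSKO and at 0.27, 0.51, 0.65 and 0.13 in HEMI. None of these other duct markers passed. The interstitial progenitor and mesenchyme markers, 7 of 7 measured, had median differences of 0.10 and -0.052, and the 6 macrophage markers measured had -0.042 and -0.16. Array medians of VSKO and of HEMI overlapped with those of WT in both lists. The part of any cell type in the lower signal of cholesterol and lipid genes was not tested.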

How the data were processed

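RNA of whole testes was labelled with Cy3 and hybridised to 1-colour Agilent arrays, 1 per biological replicate. Per the file headers, the deposited files give each spot's processed signal, a linear intensity from which the extraction software had taken the background, besides its mean and local background. Flags of 0 or 1 in the deposited files (unit: other) mark spots that are outliers, saturated or well above background. The headers give version 10.7.3.1 of the Feature Extraction modules, and the submitters' processing notes name Agilent Feature Extraction 8.5.1.1. The authors' series table holds an intensity too, equal within 0.001% to the processed signal over the median of its array.

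From these, log2 processed signal minus the 75th percentile of each array was computed, outlier spots were dropped and spots of a probe averaged. A probe was kept if both arrays of some group had it well above background (34365 of 55681), and where a gene had several, the brightest stood for it. Names came from probe accessions matched to a RefSeq table of GRCm38.p6 (26717 probes), from symbols of that table (3815) or from the file (25100), and the 49 member probes by the name in the file. Probe positions are mm9. The fit over all 6 arrays used limma 3.58.1 (R 4.3.3), a mean for each group and no trend, with 3 residual and 2.25 prior degrees of freedom and Benjamini-Hochberg adjustment over 24573 genes. Errors are SE of the fit, intervals are 95%, and the number of arrays limits the precision. The fit was tested on simulated data with 200 changed genes per run. It recovered 94.4% to 96% of log2 changes of 3, and 18.6% to 24.8% of log2 changes of 1. Of its calls, 5.5% to 8.1% were false, at an adjusted p threshold of 0.05. A gene that did not pass may thus still differ by 1 or less on the log2 scale.

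Members and lists were chosen with earlier results of these data known. Array values are given for the 6 members with the smallest p in each comparison, and for Tm7sf2 in addition, chosen for its spread. The others are given by their differences. Replicate numbers did not pair arrays across groups: their deviations correlated at -0.04, -0.03 and -0.01 between groups. Alternatives covered scaling, background, filter, probe choice, prior, arrays in the fit and each array left out. Python 3.11.15 made the counts and figures. Of the listed genes, Faxdc2, Insl3 and Lep were not analysed here. The values of some listed genes outside the set are not reported here.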

Additional observations from a re-analysis of the deposited data

How the results depend on the processing

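The members' median difference kept its sign under all 16 alternatives in VSKO against WT and in HEMI against WT. With single arrays left out it ran from -0.49 to -0.39 in VSKO against WT, from -0.52 to -0.23 in HEMI against WT (-0.23 without HEMI replicate 1) and from -0.20 to 0.12 in VSKO against HEMI (-0.20 without HEMI replicate 1, 0.12 without HEMI replicate 2). With normexp background correction 2 members passed in VSKO against WT, Dhcr7 (adjusted p = 0.0433) and Fdps (0.0351), and with an intensity trend in the prior 3 did, Dhcr7 (0.0454), Fads2 (0.0484) and Fdps (0.0258), and 1 in HEMI against WT, Fdps (0.0388). Of the other pathway genes 1 passed in VSKO against WT with normexp (Lpin1) and 1 in HEMI against WT with the trend (Fabp5). Counted after the values were seen, members lower at an unadjusted p under 0.05 ran from 8 to 17 in VSKO against WT, from 3 to 16 in HEMI against WT and from 0 to 4 in VSKO against HEMI with single arrays left out. In HEMI against WT the count was 7 with median scaling and with the series table, and in VSKO against HEMI it was 1 with either of these, with no filter on dim probes, with the mean of all probes and with the 4 compared arrays only. The replicate block left 0 members passing and all 3 medians as they were.

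Of the 96 single-member differences, none of which passed, 1536 values were computed under the 16 alternatives, and 64 of these 1536 had the opposite sign: 7 in VSKO against WT, 13 in HEMI against WT and 44 in VSKO against HEMI. The causes were not tested. In VSKO against HEMI, median scaling and the series table gave -0.067 for Fdps, -0.059 for Insig2, -0.04 for Lss, -0.0023 for Mvd, -0.038 for Scd1 and -0.023 for Scd2. Normexp gave -0.012 for Fdps, -0.027 for Insig2 and -0.0071 for Lss, quantile normalization -0.003 for Fdps and -0.0078 for Scd1, and the mean of probes -0.13 for Insig2. In HEMI against WT, Insig2 was 0.0059 with median scaling and the series table, 0.023 with normexp and 0.032 with the mean of probes, Insig1 was -0.01 with normexp, and Me1 -0.0061 with the mean of probes. In VSKO against WT, Scap was 0.024 with quantile normalization. With single arrays left out, VSKO against HEMI ran from -0.11 to 0.36 for Acaca, -0.38 to 0.091 for Acat2, -0.28 to 0.076 for Fads1, -0.034 to 0.33 for Fdft1, -0.13 to 0.14 for Fdps, -0.58 to 0.10 for Hmgcs1, -0.45 to 0.19 for Idi1, -0.12 to 0.15 for Insig2, -0.22 to 0.28 for Lss, -0.12 to 0.26 for Mvd, -0.053 to 0.21 for Pmvk, -0.028 to 0.26 for Scap, -0.33 to 0.39 for Scd1, -0.14 to 0.24 for Scd2, -0.22 to 0.15 for Srebf1 and -0.68 to 0.56 for Tm7sf2. HEMI against WT ran from -0.32 to 0.0078 for Cyp51, -0.24 to 0.28 for Insig1, -0.17 to 0.10 for Insig2, -0.34 to 0.10 for Sc4mol and -0.087 to 0.21 for Stard4, and VSKO against WT from -0.43 to 0.032 for Acaca, -0.18 to 0.50 for Fasn, -0.074 to 0.033 for Insig2 and -0.19 to 0.10 for Scap.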
